A study of Mus musculus with 4 samples.

Results

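Hepatic stellate cells are the vitamin A-storing pericytes of the liver sinusoid, and in injured liver they are known to turn into contractile, matrix-secreting myofibroblasts. This account follows 10 genes that mark these cells or the matrix they make: Acta2, Des, Dcn, Col1a1, Col1a2, Col3a1, Col4a1, Timp1, Tgfb1 and Reln. They were taken by symbol from a set list, and all 10 were found in both deposited tables, among 33639 genes. In activated stellate cells Acta2 is the classical marker, fibrillar collagens are the main product, TGF-beta is the chief fibrogenic signal and Timp1 protects the deposited matrix from breakdown.

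The libraries came from whole liver of 4 male mice, 1 for each genotype: the global Cyp27a1 knockout (Cyp27a1 KO), the global knockout that the labels name by the human symbol Cyp3a4 (Cyp3a KO), the double knockout of both (DKO) and wild type (WT). All were group housed on standard chow with a 12 h light and dark cycle and had no other treatment, and the series is titled as a study of bile acid synthesis. Cyp27a1 is the enzyme that 27-hydroxylates sterols in the acidic route to bile acids, and the Cyp3a enzymes oxidise sterols, bile acids and drugs. The sources used here give no strain, age or design of the deleted alleles. Because each genotype is 1 mouse, there are no replicates to set a difference against and no p-values, and all comparisons are of these libraries rather than of genotypes. In bulk liver RNA, fewer cells of a type and less RNA per cell cannot be told apart.

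Library totals ran between 49745860 and 50378101 counts, and 1 count was worth 0.0185 to 0.0214 CPM (counts scaled by TMM to a common library size). A gene averaging 1 CPM or more over the 4 libraries is called measured here, which 11743 genes were. Cyp27a1 stood at 57.6 CPM in Cyp27a1 KO liver and 65.3 CPM in DKO liver, against 746 CPM in WT liver, so 7.73% and 8.75% of the WT level were still counted. The 9 Cyp3a genes summed to 2.70 CPM in Cyp3a KO liver and 13.2 CPM in DKO liver, against 9605 CPM in WT liver, while their sum of 25248 CPM in Cyp27a1 KO liver was above WT. Both targets therefore matched the labels.

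The upstream sequences of 3 of these genes are shown because they belong to the gene whose level differed by the widest ratio (Acta2) and to collagens of the 2 fibrillar types that had fewer CPM in the Cyp27a1-null libraries (Col1a2 and Col3a1). Each is the 250 bases before the RefSeq start in GRCm38.p6, 5′ to 3′ on the strand of the gene. RefSeq gave such a window for 8 of the 10 genes, all except Col1a1 and Dcn. The gene coordinates given below are from GENCODE, whose starts can differ from those of RefSeq. By the GENCODE coordinates the Col1a2 window lies inside the gene, as does most of the Acta2 window. Capitals mark matches on either strand to 1 set of motifs per gene: the CArG box with 1 mismatch allowed for Acta2, CCAAT and GGGCGG for Col1a2, and CAGAC for Col3a1.
Acta2, chr19:34255374-34255623, minus strand: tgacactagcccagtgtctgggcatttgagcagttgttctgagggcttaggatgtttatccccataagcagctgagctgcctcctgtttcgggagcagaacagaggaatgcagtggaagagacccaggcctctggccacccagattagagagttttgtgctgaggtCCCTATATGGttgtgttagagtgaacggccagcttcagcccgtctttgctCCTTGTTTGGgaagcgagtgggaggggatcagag
Col1a2, chr6:4505368-4505617, plus strand: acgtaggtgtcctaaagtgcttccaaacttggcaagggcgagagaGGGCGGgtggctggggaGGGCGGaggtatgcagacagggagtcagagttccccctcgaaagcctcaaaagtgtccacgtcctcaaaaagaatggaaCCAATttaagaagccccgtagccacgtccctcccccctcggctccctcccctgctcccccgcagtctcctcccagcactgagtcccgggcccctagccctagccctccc
Col3a1, chr1:45311288-45311537, plus strand: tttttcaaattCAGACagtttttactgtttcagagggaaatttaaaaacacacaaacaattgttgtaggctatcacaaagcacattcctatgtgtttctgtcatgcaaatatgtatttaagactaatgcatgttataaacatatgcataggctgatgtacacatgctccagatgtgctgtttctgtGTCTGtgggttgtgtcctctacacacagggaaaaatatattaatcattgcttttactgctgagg
The CArG box is known as the site of serum response factor, which drives muscle-type actin genes. The Acta2 window held 2 matches, CCCTATATGG from base -84 to -75 and CCTTGTTTGG from -34 to -25, counted back from the start. In the Col1a2 window CCAAT began at base -109, where it overlapped a CArG match, and GGGCGG, the GC box, matched 2 times. The Col3a1 window held CAGAC 2 times, and CAGAC is a short form of the Smad-binding element. Neither motif was particular to the gene it is marked for. Unmarked, the Col1a2 window held 2 CArG matches and 1 CAGAC, and the Acta2 window held 1 CAGAC. Of 32851 promoter windows of this length, 18.6% held a CArG box under the same rule, 33.8% CCAAT, 32.7% GGGCGG and 42.2% CAGAC, so each match is a description of these letters and no evidence of binding.

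Per unit of transcript length, Dcn was the most abundant of the genes, with a median of 81.4 TPM (transcript abundance corrected for length) over the 4 libraries and a range of 75.8 to 83.8. Reln (median 12.1 TPM), Col4a1 (10.4 TPM) and Col3a1 (8.32 TPM) followed, and the ranges of neighbours in this order overlapped. Below them came Tgfb1 at 3.55 TPM, Col1a2 at 3.29 TPM, Col1a1 at 1.73 TPM, Des at 1.27 TPM and Acta2 at 0.929 TPM, again with overlapping neighbours. The steps from Dcn to Reln, from Col3a1 to Tgfb1 and from Acta2 to Timp1 (0.139 TPM) were the 3 without overlap. The fibrillar collagen chains thus stood well under decorin in all 4 livers. Of the 10 genes, 9 were measured, and Timp1 was not.

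**Figure D1:**
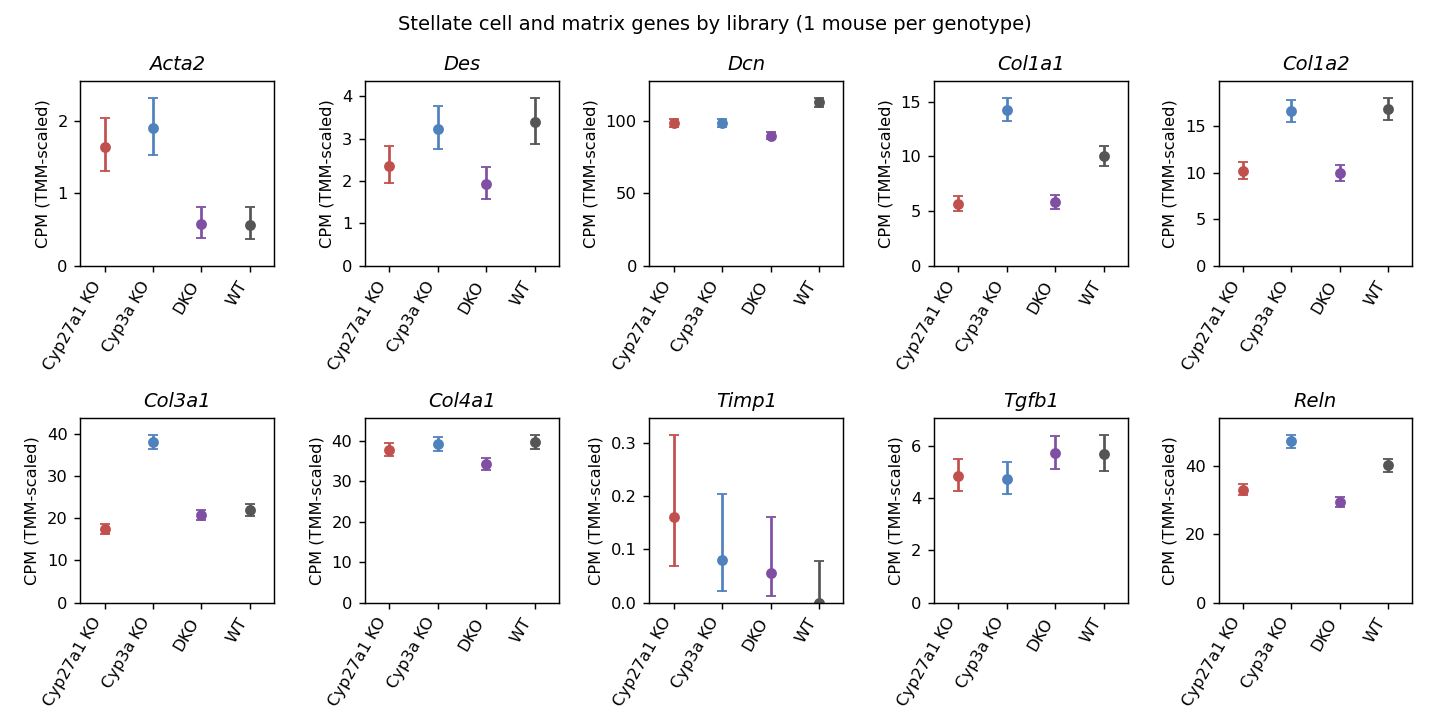
TMM-scaled CPM of each of the 10 genes (vertical axes, each from 0) for the libraries of Cyp27a1 KO, Cyp3a KO, DKO and WT liver, 1 mouse each. Points are library values and bars exact 95% Poisson intervals of the count, which cover counting error only. Acta2 is high in both single knockouts, and Col1a1 and Col1a2 are low in Cyp27a1 KO liver and the DKO.

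Of the 9 measured members Acta2 was the 1 at least 2-fold apart from WT in any knockout, and it was so in both single knockouts but not in DKO liver. Acta2 encodes smooth muscle alpha-actin, the stress-fibre actin of vascular smooth muscle and of activated stellate cells (chromosome 19, 34241090 to 34255590, minus strand, GRCm38). It had 82 counts (1.65 CPM) in Cyp27a1 KO liver, 95 counts (1.90 CPM) in Cyp3a KO liver and 31 counts (0.572 CPM) in DKO liver, against 26 counts (0.558 CPM) in WT liver. The 2 single knockouts were high and lay close together, while the DKO and WT were low and had overlapping intervals. The CPM ratio to WT was 2.95 in Cyp27a1 KO liver (exact 95% interval of the count ratio 1.88 to 4.78) and 3.40 in Cyp3a KO liver (2.19 to 5.47), against 1.03 in DKO liver (0.590 to 1.80). Set against the single knockouts, the DKO was 2.88-fold lower than the Cyp27a1 KO (1.88 to 4.50) and 3.32-fold lower than the Cyp3a KO (2.19 to 5.15). The change with loss of Cyp27a1 was thus 1.02 on the log2 scale with Cyp3a genes intact and -1.16 without them, a gap of -2.18 between pairs with no library in common.

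A gene was called where its log2 fold of CPM plus 0.5 was at least 1 in size, it was measured and its count-ratio interval excluded 1. By this rule 1 of 9 measured members was called higher in Cyp27a1 KO liver than in WT liver, against 2.44% of all measured genes, and 0 were called lower, against 1.36%. In the Cyp3a KO against WT 1 was called higher, against 2.56% of all genes, and 0 lower, against 1.86%. In the DKO against WT 0 were called higher, where 6.00% of all genes were, and 0 lower, where 4.02% were. The DKO against the Cyp27a1 KO gave 0 higher (2.84% of all genes) and 1 lower (2.59%), which was Acta2 at a log2 fold of -1.001, on the threshold, and no longer called with library totals. The DKO against the Cyp3a KO gave 0 higher (4.02%) and 2 lower (2.70%), Acta2 and Col1a1. With so few members, a single called gene is already above these shares, so the counts alone say little of the list as a whole. At its low counts Acta2 was in no comparison called with a pseudocount of 2 or a minimum mean of 5 CPM, and on TPM, where its log2 folds against WT were 1.02 in Cyp27a1 KO liver and 1.11 in Cyp3a KO liver, its mean was under 1.

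The deposited Acta2 values were not whole numbers, at 81.6 in Cyp27a1 KO liver, 95.1 in Cyp3a KO liver and 31.3 in DKO liver, against 26.2 in WT liver. Estimated counts of this kind can share reads among near-identical actins, so the split among them is uncertain. The cytoplasmic actins, named after their values were seen, were far more abundant: Actb had 226 CPM in Cyp27a1 KO liver, 268 CPM in Cyp3a KO liver and 256 CPM in DKO liver, against 195 CPM in WT liver. Actg1 had 129, 117 and 212 CPM in the same 3 knockouts, against 47.8 CPM in WT liver. The other muscle actins had few reads, with at most 7 counts of Actg2, 12 of Actc1 and 1 of Acta1 in any library. Counts of Actg2, the other smooth muscle actin, were 7 in Cyp27a1 KO liver, 4 in Cyp3a KO liver and 0 in DKO liver, against 1 in WT liver.

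Other contractile genes were not called with Acta2 in the single knockouts. Few of all measured genes were called there, 2.44% higher and 1.36% lower in Cyp27a1 KO liver, and 2.56% and 1.86% in Cyp3a KO liver. Of 12 contractile genes 9 were measured, and 0 were called in either single knockout against WT, with median log2 folds of -0.01 in Cyp27a1 KO liver and 0.24 in Cyp3a KO liver, where the median of all genes was 0.00 and 0.01. The largest folds belonged to Cald1 (caldesmon) at 0.49 and 0.63 in these knockouts, to Smtn (smoothelin) at -0.53 in Cyp27a1 KO liver, and to Myh11 at 0.49 in Cyp3a KO liver. Myh11, the smooth muscle myosin heavy chain, had 1.63 CPM in Cyp27a1 KO liver, 1.80 CPM in Cyp3a KO liver and 0.720 CPM in DKO liver, against 1.14 CPM in WT liver, the same order of high and low pairs as Acta2 by smaller ratios. In the DKO 1 contractile gene was called higher (6.00% of all genes were), the tropomyosin Tpm1, at 39.1 CPM in DKO liver against 16.8 CPM in WT liver (ratio 2.32, 2.14 to 2.52). The contractile list summed to 290 CPM in Cyp27a1 KO liver, 328 CPM in Cyp3a KO liver and 311 CPM in DKO liver, against 240 CPM in WT liver.

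Des and Reln, which mark quiescent as well as activated stellate cells in rodents, were lower in both Cyp27a1-null libraries than in either library with Cyp27a1, by less than 2-fold in CPM. Des encodes desmin, the muscle-type intermediate filament (chromosome 1, 75360329 to 75368579, plus strand). It had 117 counts (2.35 CPM) in Cyp27a1 KO liver, 162 counts (3.24 CPM) in Cyp3a KO liver and 104 counts (1.92 CPM) in DKO liver, against 158 counts (3.39 CPM) in WT liver. Desmin was 1.44-fold lower in Cyp27a1 KO liver than in WT liver (1.13 to 1.85) and 1.77-fold lower in DKO liver (1.37 to 2.28), while the Cyp3a KO interval spanned 1 (ratio 0.955, 0.762 to 1.20). The DKO was also 1.69-fold lower than the Cyp3a KO (1.31 to 2.18). On TPM these differences were smaller, with log2 folds of -0.21 in Cyp27a1 KO liver and -0.14 in DKO liver against WT, and -0.16 in DKO liver against the Cyp3a KO.

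Reln encodes reelin, a secreted glycoprotein that signals through lipoprotein receptors and is made in adult liver by stellate cells (chromosome 5, 21884454 to 22344702, minus strand). Reelin had 1645 counts (33.0 CPM) in Cyp27a1 KO liver, 2364 counts (47.2 CPM) in Cyp3a KO liver and 1593 counts (29.4 CPM) in DKO liver, against 1870 counts (40.1 CPM) in WT liver. The Cyp3a KO was the highest library and the DKO the lowest, 1.61-fold apart (1.51 to 1.71). Against WT the ratio was 0.824 in Cyp27a1 KO liver (0.770 to 0.880), 1.18 in Cyp3a KO liver (1.11 to 1.25) and 0.733 in DKO liver (0.685 to 0.784), but on TPM Reln was 0.07 above WT on the log2 scale in Cyp27a1 KO liver and 0.23 above it in DKO liver. Of 3 genes of the reelin pathway 1 was measured, the reelin and lipoprotein receptor Vldlr. Vldlr ran the other way in DKO liver, at 2.92 CPM in DKO liver against 0.686 CPM in WT liver (ratio 4.25, 2.89 to 6.42), and was called higher there only, where 6.00% of all genes were.

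Type I collagen was the clearest shared pattern among the members: both of its chains were about equally low in Cyp27a1 KO liver and the DKO. Col1a1 encodes the alpha-1 chain, of which the type I triple helix holds a pair (chromosome 11, 94936224 to 94953042, plus strand). It had 283 counts (5.68 CPM) in Cyp27a1 KO liver, 714 counts (14.3 CPM) in Cyp3a KO liver and 314 counts (5.80 CPM) in DKO liver, against 467 counts (10.02 CPM) in WT liver. The Cyp27a1-null libraries agree within counting error with each other (DKO over Cyp27a1 KO ratio 1.02, 0.866 to 1.20). Col1a1 was 1.76-fold lower in Cyp27a1 KO liver than in WT liver (1.52 to 2.05) and 1.73-fold lower in DKO liver than in WT liver (1.49 to 2.0001). In the Cyp3a KO it was 1.42 times WT (1.27 to 1.60), and the DKO was 2.46-fold lower than the Cyp3a KO (2.15 to 2.82), the call named above.

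Col1a2 encodes the alpha-2 chain of the same helix (chromosome 6, 4504814 to 4541544, plus strand). It had 506 counts (10.2 CPM) in Cyp27a1 KO liver, 830 counts (16.6 CPM) in Cyp3a KO liver and 540 counts (9.97 CPM) in DKO liver, against 783 counts (16.8 CPM) in WT liver. The libraries fell into 2 pairs, the Cyp27a1-null pair low and the Cyp3a KO with WT high. Col1a2 was 1.65-fold lower in Cyp27a1 KO liver than in WT liver (1.48 to 1.85) and 1.66-fold lower in DKO liver than in Cyp3a KO liver (1.49 to 1.86). On the log2 scale loss of Cyp27a1 gave -0.70 with Cyp3a genes intact and -0.71 without them. Loss of Cyp3a gave -0.02 in Cyp3a KO liver against WT and -0.03 in DKO liver against the Cyp27a1 KO.

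The balance of the 2 chains was shifted in Cyp3a KO liver alone among these libraries. Col1a1 made up 35.9% of the counts of both chains in Cyp27a1 KO liver (Clopper-Pearson 95% interval 32.5% to 39.3%), 46.2% in Cyp3a KO liver (43.7% to 48.8%) and 36.8% in DKO liver (33.5% to 40.1%), against 37.4% in WT liver (34.7% to 40.1%). The Cyp3a KO interval lay above the other three, which overlapped. Per length, the TPM ratio of Col1a1 over Col1a2 was 0.479 in Cyp27a1 KO liver, 0.763 in Cyp3a KO liver and 0.517 in DKO liver, against 0.532 in WT liver, under 1 in all 4 libraries.

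Type III collagen, the thin fibrillar collagen that assembles with type I, was high in Cyp3a KO liver. Col3a1 (chromosome 1, 45311538 to 45349706, plus strand) had 870 counts (17.5 CPM) in Cyp27a1 KO liver, 1911 counts (38.2 CPM) in Cyp3a KO liver and 1124 counts (20.7 CPM) in DKO liver, against 1023 counts (21.9 CPM) in WT liver. The Cyp3a KO was the highest library by a wide margin, at 1.74 times WT (1.61 to 1.88), and the DKO was within counting error of WT (ratio 0.946, 0.868 to 1.03). Col3a1 was 1.26-fold lower in Cyp27a1 KO liver than in WT liver (1.15 to 1.38) and 1.84-fold lower in DKO liver than in Cyp3a KO liver (1.71 to 1.98). Neither reached the 2-fold rule.

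Col4a1 and Dcn differed little between libraries in CPM. Col4a1 encodes the alpha-1 chain of type IV collagen, the network collagen of basement membranes (chromosome 8, 11198423 to 11312826, minus strand). It had 1884 counts (37.8 CPM) in Cyp27a1 KO liver, 1966 counts (39.3 CPM) in Cyp3a KO liver and 1854 counts (34.2 CPM) in DKO liver, against 1851 counts (39.7 CPM) in WT liver. The DKO was 1.16-fold lower than WT (1.09 to 1.24), the widest gap of any 2 libraries, but on TPM the DKO was 0.16 above WT on the log2 scale. Its partner chain Col4a2, transcribed from the same divergent promoter, was less even, so the Col4a1 share of the counts of both was 64.0% in Cyp27a1 KO liver (62.2% to 65.7%), 57.1% in Cyp3a KO liver (55.4% to 58.7%) and 61.3% in DKO liver (59.6% to 63.1%), against 59.3% in WT liver (57.6% to 61.0%). The Cyp27a1 KO share was above those of the Cyp3a KO and WT, with intervals that did not overlap.

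Dcn encodes decorin, a small leucine-rich proteoglycan that binds collagen fibrils and TGF-beta (chromosome 10, 97479609 to 97518143, plus strand). Decorin had 4894 counts (98.3 CPM) in Cyp27a1 KO liver, 4928 counts (98.4 CPM) in Cyp3a KO liver and 4866 counts (89.8 CPM) in DKO liver, against 5262 counts (113 CPM) in WT liver. WT was the highest library and the DKO the lowest, 1.26-fold apart (1.21 to 1.31), and on TPM the DKO was 0.03 above WT on the log2 scale.

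Tgfb1, the ligand TGF-beta 1, differed by at most 1.21-fold between any 2 libraries (chromosome 7, 25687002 to 25705077, plus strand). It had 243 counts (4.88 CPM) in Cyp27a1 KO liver, 238 counts (4.75 CPM) in Cyp3a KO liver and 311 counts (5.74 CPM) in DKO liver, against 267 counts (5.73 CPM) in WT liver. The single knockouts were the lower pair, and the ratio of the DKO to WT was 1.003 (0.849 to 1.19). Timp1, the tissue inhibitor of metalloproteinases induced in fibrotic liver, was close to absent from these counts (chromosome X, 20870166 to 20874735, plus strand). It had 8 counts in Cyp27a1 KO liver, 4 in Cyp3a KO liver and 3 in DKO liver, against 0 in WT liver. The exact 95% lower limit of the count ratio to WT was 1.60 in Cyp27a1 KO liver and 0.615 in Cyp3a KO liver, so the Cyp3a KO interval includes no difference. The DKO, at 3 counts, has no fold.

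**Figure D2:**
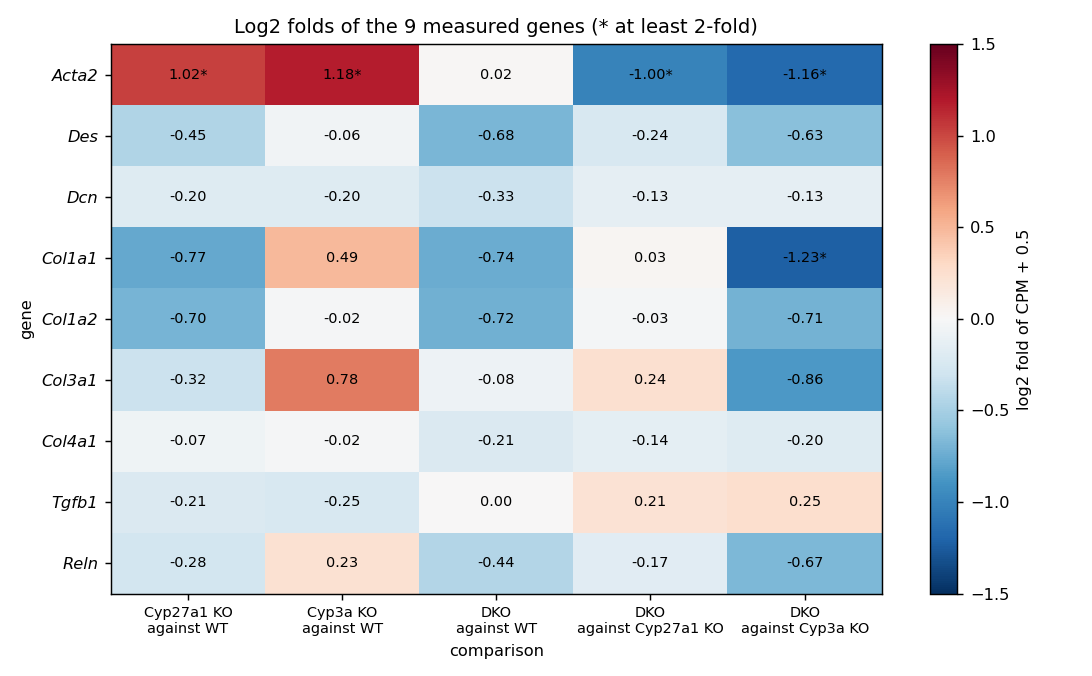
Log2 folds of CPM plus 0.5 for the 9 measured genes (rows) in the 5 comparisons (columns), with the first-named library over the second. Red is higher, blue is lower, and an asterisk marks a gene called at least 2-fold. Acta2 is red in both single knockouts against WT and near 0 in DKO liver, while Col1a1 and Col1a2 are blue in Cyp27a1 KO liver, in DKO liver and in DKO liver against the Cyp3a KO.

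Seen over the 2 pairs of libraries that measure loss of Cyp27a1 without a library in common, most members were lower. In CPM 7 of the 9 measured members (Des, Dcn, Col1a1, Col1a2, Col3a1, Col4a1 and Reln) were lower in both the Cyp27a1 KO and the DKO than in either the Cyp3a KO or WT, where 20.7% of all measured genes were, and 0 were higher in both, where 18.7% of all genes were. The exceptions were Acta2 and Tgfb1, whose signs differed between the pairs. For some of the 7 the nearest libraries of the low and high pairs had overlapping counting intervals. Between the Cyp27a1 KO and the Cyp3a KO these were Dcn (98.3 and 98.4 CPM), Col4a1 (37.8 and 39.3 CPM) and Des (2.35 and 3.24 CPM). Between the DKO and WT it was Col3a1 (20.7 and 21.9 CPM). The order of the 7 already fixes log2 folds below 0 in both pairs, and no other measured member had them. Of all measured genes 31.2% had them. A drop of at least 1.5-fold in both pairs was met by 2 members, Col1a1 and Col1a2, against 1.80% of all genes, and a gain of that size in both by 0, against 2.73%.

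The number of members in this pattern depended on the scale. On the deposited TPM, where the median of all genes was itself 0.18 higher on the log2 scale in Cyp27a1 KO liver than in WT liver and 0.24 higher in DKO liver than in Cyp3a KO liver (and 0.33 in DKO liver than in WT liver), 3 of 8 members (Des, Col1a1 and Col1a2) were lower in both Cyp27a1-null libraries, against 6.16% of all genes, and 1, Col4a1, was higher in both, against 42.1%. Recentred on the median gene, TPM gave 5 members lower in both (these 3 with Col3a1 and Reln), against 18.6% of all genes. Tgfb1 had TPM folds above 0 in all 3 knockouts against WT, at 0.09, 0.11 and 0.32 on the log2 scale. Col1a1 and Col1a2 kept their direction: the log2 fold of TPM in Cyp27a1 KO liver against WT was -0.49 for Col1a1 and -0.42 for Col1a2, and in DKO liver against the Cyp3a KO it was -0.82 and -0.40. Relative to the shift of all genes, the members' median TPM fold was -0.21 in Cyp27a1 KO liver against WT and -0.41 in DKO liver against the Cyp3a KO, over the 8 with a mean of at least 1 TPM. Scaled by plain library totals, 4 members kept the order (Des, Col1a1, Col1a2 and Reln), against 12.4% of all genes. With median-of-ratios factors 6 kept it, all of the 7 except Dcn, against 19.8% of all genes.

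Loss of Cyp3a gave no shared order among the members. In CPM 0 of 9 were lower in both the Cyp3a KO and the DKO than in either the Cyp27a1 KO or WT (18.6% of all genes were), and 0 were higher in both (17.5%). No member was at least 1.5-fold lower in both pairs (0 of 9, against 1.84% of all genes) or higher in both (0, against 2.33%). By sign alone 4 were below 0 in both pairs (Des, Dcn, Col1a2 and Col4a1), against 29.1% of all genes, and 2 were above 0 in both (Col1a1 and Col3a1), against 28.8%. Acta2, Tgfb1 and Reln had opposite signs, as 42.0% of all genes did.

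**Figure D3:**
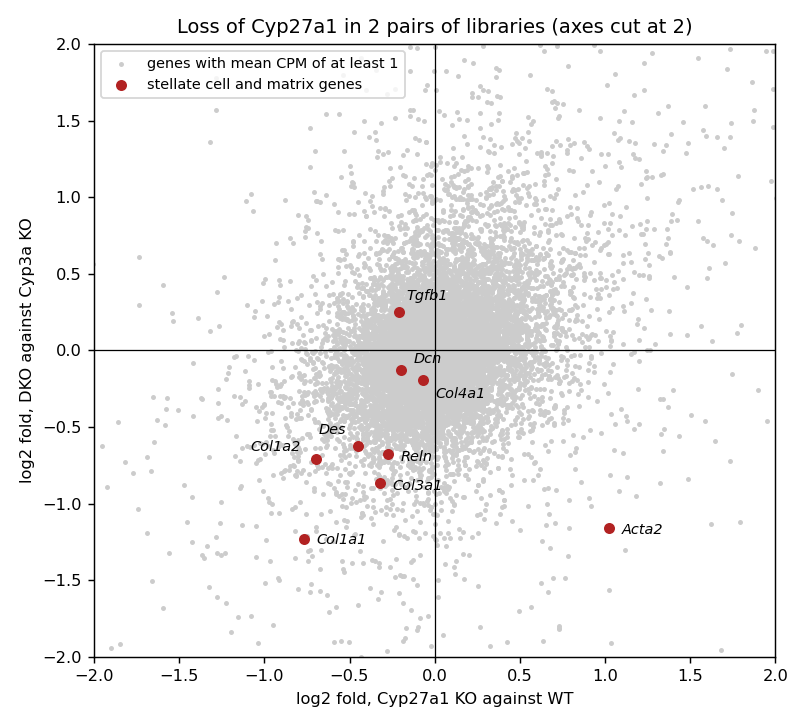
Log2 fold of CPM plus 0.5 for loss of Cyp27a1 in the presence of Cyp3a (horizontal axis, Cyp27a1 KO against WT) and in its absence (vertical axis, DKO against Cyp3a KO), for all measured genes (grey) and the 9 measured members (red). The 7 members at lower left include Col1a1 and Col1a2, Acta2 is at lower right with 1.02 and -1.16, and genes beyond the axis limits are not drawn.

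The profiles of the members over the 4 libraries can be set side by side by the root mean square difference of their centred log2 CPM, which is small for like profiles. Col1a1 was nearest to Col1a2 (0.233), and 41 other genes were as near to it or nearer. Col1a2 was nearest to Des (0.112), with 48 other genes as near, and Col3a1 was nearest to Col1a1 (0.241), with 186. The nearest member to Acta2 was Reln at 0.491, with 2119 other genes as near, and the nearest to Tgfb1 was Dcn at 0.153, with 2883. Among genes of the other lists, the nearest to the median profile of the members were the type VI collagen chain Col6a1 (0.0437), the latent TGF-beta binding protein Ltbp3 (0.0786) and Col4a2 (0.0840). These are descriptions over 4 libraries.

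Other matrix genes were mostly not called, and neither were most of all measured genes. Of all genes 2.44% were called higher and 1.36% lower in Cyp27a1 KO liver than in WT liver. The shares were 2.56% and 1.86% in Cyp3a KO liver, and 6.00% and 4.02% in DKO liver. Of 14 other collagens 13 were measured and 1 was called in DKO liver against WT, Col27a1, a fibrillar collagen of cartilage, at 4.69 CPM in DKO liver against 36.7 CPM in WT liver (7.82-fold lower, 6.85 to 8.95). Col27a1 was 27.4 CPM in Cyp27a1 KO liver and 26.04 CPM in Cyp3a KO liver, so the DKO stood alone, and 0 collagens of this list were called in either single knockout against WT. Col5a3, a minor type V chain, was above WT in all 3 knockouts without being called, at 38.3 CPM in Cyp27a1 KO liver, 34.8 CPM in Cyp3a KO liver and 29.8 CPM in DKO liver, against 21.02 CPM in WT liver. Median log2 folds of this list were -0.09 in Cyp27a1 KO liver, 0.18 in Cyp3a KO liver and -0.27 in DKO liver against WT.

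Of 25 non-collagen matrix proteins 23 were measured, and 0 were called in either single knockout against WT. Of all genes 2.44% were higher and 1.36% lower in Cyp27a1 KO liver, and 2.56% and 1.86% in Cyp3a KO liver. In the DKO against WT 1 was higher (6.00% of all genes were), the laminin chain Lama5, at 9.97 CPM in DKO liver against 3.30 CPM in WT liver (ratio 3.02, 2.52 to 3.63). There 3 were lower (4.02% of all genes were): the proteoglycan Ogn by 4.13-fold (2.81 to 6.24), the elastic fibre protein Fbln5 by 2.59-fold (2.20 to 3.06) and the basement membrane protein Nid2 by 3.04-fold (2.55 to 3.63). On TPM Lama5 was still past the rule, while the log2 folds were -0.98 for Ogn, -0.75 for Fbln5 and -0.94 for Nid2. After recentring on the median gene, 0 genes of the list were past the rule as higher and 2 as lower. Of 11091 genes, 684 and 452 were. Fmod, the proteoglycan fibromodulin, was called in DKO liver against the Cyp3a KO only, 2.70-fold lower (2.001 to 3.67), where 2.70% of all genes were called lower. Fn1, fibronectin, which hepatocytes also make, was 1.70-fold lower in Cyp27a1 KO liver than in WT liver and was not called. The median log2 fold of the list was -0.24 in Cyp27a1 KO liver, -0.11 in Cyp3a KO liver and -0.22 in DKO liver against WT.

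The enzymes that fold, hydroxylate and cross-link collagen had, over those measured, median log2 folds against WT of -0.04 in Cyp27a1 KO liver, -0.08 in Cyp3a KO liver and -0.21 in DKO liver. Of 17 listed 15 were measured, and 1 was called against WT in any knockout, the lysyl oxidase homologue Loxl4 in DKO liver, at 0.406 CPM in DKO liver against 1.82 CPM in WT liver (4.49-fold lower, 2.78 to 7.54). In DKO liver 4.02% of all genes were called lower than in WT liver. Serpinh1, the collagen chaperone HSP47, had 12.7 CPM in Cyp27a1 KO liver, 14.1 CPM in Cyp3a KO liver and 8.77 CPM in DKO liver, against 9.39 CPM in WT liver, high in the same 2 libraries as Acta2 and not called. Of 19 matrix proteases and inhibitors 12 were measured. Mmp12, macrophage elastase, was called higher in DKO liver, where 6.00% of all genes were, at 2.31 CPM in DKO liver against 0.558 CPM in WT liver (ratio 4.14, 2.70 to 6.58).

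Among the TGF-beta pathway genes, calls against WT were most numerous in DKO liver, as they were among all measured genes. Of 26 listed 22 were measured, and in DKO liver against WT 1 was called higher (6.00% of all genes) and 4 lower (4.02%). In Cyp27a1 KO liver 0 were called higher (2.44%) and 2 lower (1.36%), and in Cyp3a KO liver 1 higher (2.56%) and 1 lower (1.86%). Tgfbr2, the type II receptor, had 84.2 CPM in DKO liver against 24.2 CPM in WT liver (ratio 3.48, 3.26 to 3.72). Smad7, the inhibitory Smad, was 3.10-fold lower (2.68 to 3.61), the co-repressor Skil 2.75-fold lower (2.50 to 3.03) and the decoy receptor Bambi 2.75-fold lower (2.12 to 3.58). Id1, a target of BMP signalling, was 5.89-fold lower in DKO liver than in WT liver (4.70 to 7.44) and 2.37-fold lower in Cyp27a1 KO liver (2.01 to 2.80), where Bambi was also called, 2.28-fold lower (1.78 to 2.95). In the Cyp3a KO Ctgf, the matricellular target CCN2, was 2.22-fold lower than in WT liver (2.03 to 2.43). On the TPM scale Tgfbr2, Smad7 and Id1 still passed the 2-fold rule in DKO liver against WT, and Skil at -0.87 and Bambi at -0.64 did not. After recentring on the median gene, 1 gene of this list passed it there as higher and 3 as lower. Of 11091 genes, 684 and 452 did so. Of 6 PDGF ligands and receptors, all measured, 0 were called in any of the 5 comparisons, the largest against WT being Pdgfra in Cyp3a KO liver at -0.96 and Pdgfa in DKO liver at 0.92 on the log2 scale. On TPM Pdgfa passed the 2-fold rule in DKO liver, at 1.49 on the log2 scale against WT (also after recentring on the median gene) and at 1.04 against the Cyp3a KO (not after recentring).

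Markers of stellate cell identity other than the members gave no shared shift. Of 20 listed 19 were measured, their median log2 fold against WT was -0.15 in Cyp27a1 KO liver, -0.14 in Cyp3a KO liver and -0.13 in DKO liver, and their summed level was 398 CPM in Cyp27a1 KO liver, 364 CPM in Cyp3a KO liver and 357 CPM in DKO liver, against 379 CPM in WT liver. None of the 20 was at 0 in any library, so the labelled liver held stellate cell transcripts throughout. Steap4 had the largest fold in Cyp27a1 KO liver, at 106 CPM against 58.1 CPM in WT liver, and was not called.

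**Figure D4:**
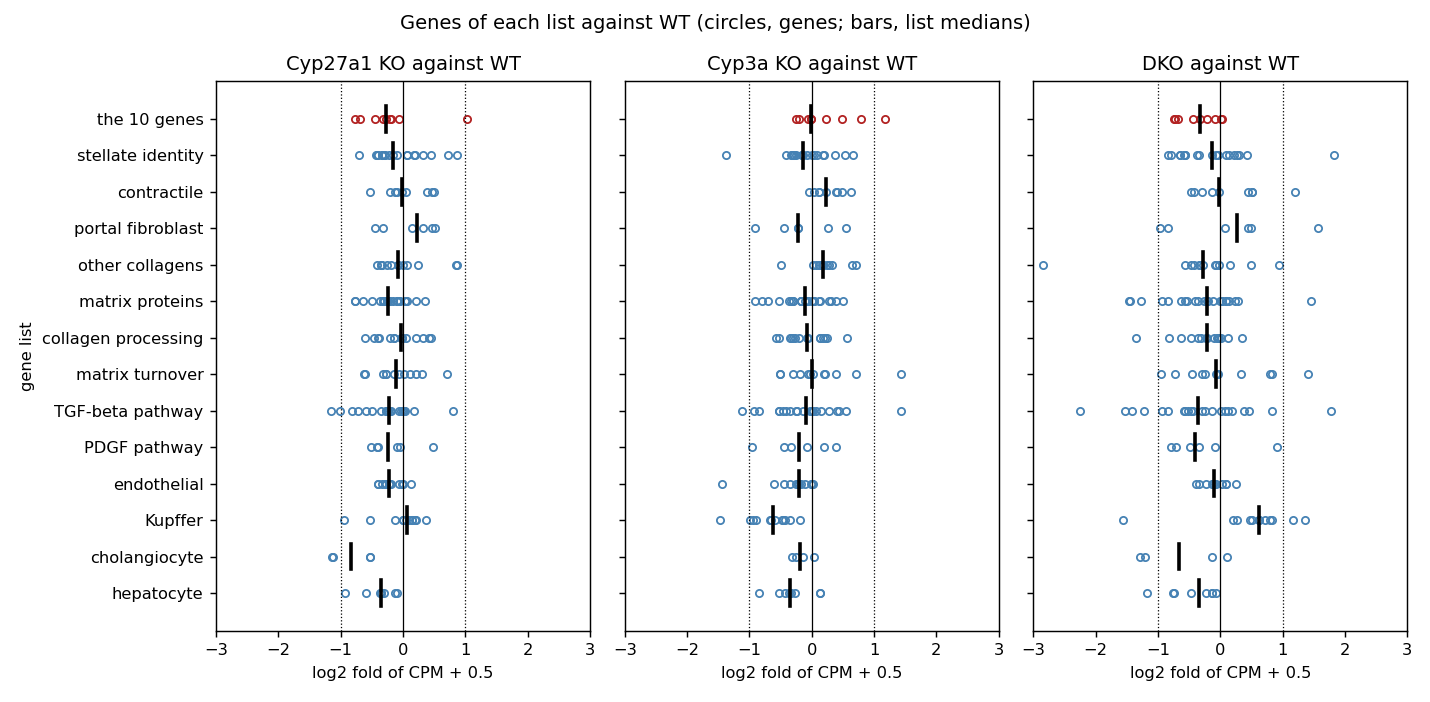
Log2 fold of CPM plus 0.5 against WT (horizontal axes) for each measured gene of 14 lists (rows), in Cyp27a1 KO liver, the Cyp3a KO and the DKO. Circles are genes, bars are list medians, and dotted lines mark a 2-fold difference. The members' medians are -0.28, -0.02 and -0.33, and the Kupffer cell list has medians of 0.07, -0.62 and 0.62.

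Markers of other liver cells that could carry these transcripts, or that share the tissue, also differed between libraries. Of 10 portal fibroblast markers 6 were measured, with a sum of 50.1 CPM in Cyp27a1 KO liver, 46.8 CPM in Cyp3a KO liver and 52.0 CPM in DKO liver, against 39.4 CPM in WT liver. Only Entpd2, an ectonucleotidase, was called among them, in DKO liver (ratio to WT 3.35, 2.73 to 4.15), where 6.00% of all genes were called higher. Cholangiocyte markers, of which 4 of 8 were measured, had their lowest CPM sums in the same 2 libraries as type I collagen. The sum was 6.83 CPM in Cyp27a1 KO liver, 12.4 CPM in Cyp3a KO liver and 7.86 CPM in DKO liver, against 13.8 CPM in WT liver. On TPM the DKO sum (6.05) was close to the Cyp3a KO sum (6.54), with 3.85 in Cyp27a1 KO liver and 7.21 in WT liver. In DKO liver against WT the log2 folds of the measured markers ran from -1.28 to 0.11, so not all were lower. The transcription factor Sox9 was 2.38-fold lower in Cyp27a1 KO liver than in WT liver (1.96 to 2.90) and 2.70-fold lower in DKO liver (2.21 to 3.29), and the keratin Krt23 was 2.98-fold (2.04 to 4.44) and 3.24-fold lower (2.22 to 4.83). These 2 of the 4 measured markers were called lower in both knockouts, where 1.36% and 4.02% of all genes were. On TPM these log2 folds were -0.80 and -0.79 for Sox9 and -0.97 and -0.94 for Krt23, short of the rule. After recentring on the median gene, 1 cholangiocyte marker passed it as lower in Cyp27a1 KO liver and 2 in DKO liver. Of 11091 genes, 174 and 452 did so. The part of biliary or portal tissue in the collagen differences was not tested.

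Mesothelial markers, of which 3 of 6 were measured, summed to 6.57 CPM in Cyp27a1 KO liver, 4.87 CPM in Cyp3a KO liver and 2.90 CPM in DKO liver, against 4.53 CPM in WT liver, highest in Cyp27a1 KO liver and lowest in DKO liver. Msln was 4.06-fold lower (2.61 to 6.52) and Upk3b 4.02-fold lower (2.58 to 6.46) in DKO liver than in Cyp27a1 KO liver, where 2.59% of all genes were called lower. Neither was called against WT. The part of liver capsule in the Acta2 difference was not tested. Kupffer cell markers, all 12 measured, summed to 357 CPM in Cyp27a1 KO liver, 228 CPM in Cyp3a KO liver and 510 CPM in DKO liver, against 345 CPM in WT liver. In the DKO Adgre1 and Cd5l were called higher than in WT liver (6.00% of all genes were) and Cd163 lower (4.02%). In Cyp3a KO liver Marco was called lower than in WT liver (1.86% of all genes were). Called higher in DKO liver than in Cyp3a KO liver were 7 of the 12, against 4.02% of all genes. Among the members Tgfb1 was likewise lowest in Cyp3a KO liver (4.75 CPM) and highest in DKO liver (5.74 CPM), though close to WT there (5.73 CPM). The collagens among the members and Acta2 were not lowest and highest in these libraries. The part of Kupffer cells in the differences of the members was not tested.

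Endothelial markers, all 12 measured, summed to 303 CPM in Cyp27a1 KO liver, 291 CPM in Cyp3a KO liver and 324 CPM in DKO liver, against 355 CPM in WT liver. Their 1 call against WT was Lyve1 in Cyp3a KO liver, 2.79-fold lower than in WT liver (2.54 to 3.08), where 1.86% of all genes were called lower. The 8 hepatocyte genes, all measured, summed to 64926 CPM in Cyp27a1 KO liver, 69456 CPM in Cyp3a KO liver and 91212 CPM in DKO liver, against 105830 CPM in WT liver, most of it Alb. Ttr in DKO liver was the 1 called against WT (2.26-fold lower), where 4.02% of all genes were called lower. The 5 erythroid genes summed to 448 CPM in Cyp27a1 KO liver, 286 CPM in Cyp3a KO liver and 280 CPM in DKO liver, against 608 CPM in WT liver. Of them 4 were called lower than in WT liver in Cyp3a KO liver (1.86% of all genes were) and 4 in DKO liver (4.02%). Of 7 lymphocyte and 5 neutrophil markers 0 were measured, and Ly6g and Mpo were at 0 in all 4 libraries.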

How the data were processed

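The authors deposited 1 table of estimated counts by gene symbol, of which 57.7% were whole numbers, and 1 of TPM, transcript abundance scaled to a fixed total. The submitters' processing notes name the mm10 build, kallisto 0.43.1, HISAT2 2.0.5 and Trimmomatic 0.33 without their roles, and the sources used here give neither the annotation nor the rule for summing transcripts. RNA was kept in RNAlater, extracted with RNeasy and made into TruSeq v2 libraries, per the labels' protocols. Estimated counts were rounded and scaled with TMM (edgeR 4.0.16, R 4.3.3). The factors were 0.996 for Cyp27a1 KO, 0.994 for Cyp3a KO, 1.08 for DKO and 0.937 for WT. 1 row that names no gene held 0 counts. Mitochondrial genes took 5.53% to 7.32% and Alb 3.78% to 7.08% of a library.

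The 5 comparisons set every knockout against WT and, besides, the DKO against both single knockouts, and those with a library in common are not independent. For log2 folds a pseudocount of 0.5 was added to CPM, which makes folds of low genes smaller, while ratios are of CPM without it. A gene was called at 2-fold or more, with a mean of at least 1 CPM and a 95% interval of its count ratio (exact conditional binomial, after Clopper and Pearson) that excluded 1. Single counts have exact Poisson intervals. Reads carried no molecular identifiers and may repeat 1 molecule, so counting error is all that these intervals and floors cover. No test across genes was run: an additive model of both losses would leave 1 residual degree of freedom, with their interaction taken as error. The rule was tested on simulated counts with known folds.

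The 10 genes, the 18 other lists and the rules were chosen with earlier results of these data known. Named are the 10 genes, up to 4 called genes of each list per comparison with the largest folds, and up to 2 where none was called, with some left out for length. Some genes of these lists are not reported here. Other settings were library totals, median-of-ratios factors (DESeq2 1.42.0), TPM as deposited and recentred on the median gene, no filter or 5 CPM, pseudocounts of 0.1 and 2, 1.5-fold and 4-fold rules, and no counting interval. Gene coordinates are from GENCODE M21 and promoter sequences from RefSeq, both GRCm38. Computation used Python 3.11.15 with pandas 2.3.3 and scipy 1.17.1.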

Additional observations from a re-analysis of the deposited data

Results flagged for a closer look

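Acta2 ran in opposite directions in the 2 pairs of libraries that measure each loss. For loss of Cyp27a1 its log2 fold was 1.02 in the Cyp27a1 KO against WT and -1.16 in the DKO against the Cyp3a KO. For loss of Cyp3a it was 1.18 in the Cyp3a KO against WT and -1.001 in the DKO against the Cyp27a1 KO. The Kupffer cell receptor Marco had a log2 fold of -1.48 for loss of Cyp3a in the Cyp3a KO against WT and 1.16 in the DKO against the Cyp27a1 KO. Each of these results rests on 1 library per genotype, and the difference between the pairs was not tested.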

How the results depend on the processing

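Of the 120 alternative counts of members, 91 stayed within 1.5 times the main count and 29 did not. Most of the 91 were counts of 0 that stayed 0, which stricter settings such as the 4-fold rule could not change. The 91 therefore say little of how stable the calls were, and call counts above 0 often moved, as given below. Of 300 alternative folds of single members 227 stayed within their counting interval, and 0 called folds changed sign. Acta2 was no longer called higher in the Cyp27a1 KO or in the Cyp3a KO against WT (0 in place of 1 each) under TPM, recentred TPM, a mean of at least 5 CPM, a pseudocount of 2 and the 4-fold rule, and its mean TPM is under 1, so the TPM filter drops it. In the DKO against the Cyp27a1 KO the 1 lower call became 0 under these 5 settings and under library totals and median-of-ratios factors. In the DKO against the Cyp3a KO the 2 lower calls became 0 under TPM and the 4-fold rule and 1, Col1a1, under recentred TPM, 5 CPM and the pseudocount of 2. The 1.5-fold rule gave 2 lower members in the Cyp27a1 KO (Col1a1, Col1a2), 2 higher in the Cyp3a KO (Acta2, Col3a1) and 3 lower in the DKO (Des, Col1a1, Col1a2) against WT, and 6 lower in the DKO against the Cyp3a KO (these 3 with Acta2, Col3a1 and Reln). The 7 members lower in both Cyp27a1-null libraries, a count chosen after seeing the data, became 6 under median-of-ratios factors and under 5 CPM. The count became 4 under library totals, 5 under recentred TPM and 3 under TPM, where 1 was higher in place of 0. Where the filter or the fold rule did not itself decide, the cause was not tested.

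Over all genes, called higher and lower were 705 and 472 in the DKO against WT, but 1280 and 268 on TPM and 975 and 356 with library totals. On TPM they were 446 and 129 (287 and 160 in CPM) in the Cyp27a1 KO against WT, 470 and 247 (333 and 304) in the DKO against the Cyp27a1 KO, and 736 and 211 (472 and 317) in the DKO against the Cyp3a KO. No paired analysis was possible because the genotypes share only 1 replicate number.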
